A study of Mus musculus with 4 samples.

Results

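Small leucine-rich proteoglycans are secreted matrix proteins, and the 10 genes described here are the decorin, biglycan and asporin genes (*Dcn*, *Bgn*, *Aspn*), the fibromodulin, lumican, prolargin, keratocan and osteomodulin genes (*Fmod*, *Lum*, *Prelp*, *Kera*, *Omd*), and the epiphycan and osteoglycin genes (*Epyc*, *Ogn*). They were chosen by name, through the accession of their array probes, and all 10 were measured among the 45616 genes tested. *Fmod* fell about 2.06-fold in the aged nasal mucosa, *Aspn* 1.66-fold and *Lum* 1.62-fold. *Dcn* differed by 1.14-fold, and its ages overlapped. All 10 genes had a lower mean in aged mice, a direction shared by 48.5% of all genes, and the signal of *Kera* was close to background. At a false discovery rate (FDR) below 0.25 by limma, 3 of the 10 passed the test, against 2.33% of all genes called lower. At an FDR below 0.10, 0 of the 10 passed.

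RNA of nasal mucosa, labelled olfactory epithelium, came from mice labelled C57BL/6J at 8 weeks (young adult) and 16 months (aged) of age, without any treatment or transgene in either group. Each of the 4 one-color arrays, 2 per age, carried RNA pooled from 5 mice, and the methods give too few mice for the pools of an age to be wholly separate, so that P values measure the spread between these pools, which may be partly technical. The labels also name silica and lung in a description that their titles contradict, and that description was not used. The mice are stated to be male, but *Xist*, transcribed from the inactive X chromosome, was well above background on all 4 arrays, at 612 to 645, whereas no probe of the Y-linked genes *Ddx3y*, *Eif2s3y*, *Kdm5d* and *Uty* was well above background on any array. The 8 markers of mature olfactory receptor neurons (ORNs) and the 6 of sustentacular cells were well above background on all arrays, and so were 7 of 9 osteoblast markers. Between 63.1 and 76.8% of non-control spots per array were well above background and 0 were saturated. In such whole tissue, fewer cells of a type and less RNA per cell cannot be told apart.

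These proteoglycans carry a curved domain of leucine-rich repeats that sits on the surface of collagen fibrils, where it governs fibril diameter and spacing. Decorin and biglycan bear chondroitin or dermatan sulfate chains, and fibromodulin, lumican and keratocan bear keratan sulfate. Several members also hold growth factors such as TGF-β in the matrix. In connective tissue such as the lamina propria beneath the olfactory epithelium they are made mainly by fibroblasts, and some members mark bone, cartilage or cornea.

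Most of the genes lie side by side in the mouse genome, which bears on whether neighbours changed alike. In the order of protein-coding genes in RefSeq (GRCm38.p6), *Dcn*, *Lum*, *Kera* and *Epyc* follow each other on chromosome 10, *Ecm2*, *Aspn*, *Omd* and *Ogn* on chromosome 13, and *Optc*, *Prelp* and *Fmod* on chromosome 1, while *Bgn* lies on the X chromosome. Upstream sequence from RefSeq was matched for 8 of the 10 genes. The 250 bases before the start are shown for the pair of neighbours on chromosome 1 and for the neighbours on chromosome 13. In both places 1 gene passed the test and its neighbours did not. The same held on chromosome 10, where *Lum* passed, but no sequence was matched for *Lum* and *Dcn*, so that cluster is not shown. Capitals mark matches to 4 short promoter motifs, searched on both strands. The TATA box was searched for with the letters TATAAA. The CCAAT box was searched for by the letters of its name. For the GC box, which binds Sp1, the letters were GGGCGG. The motif of the AP-1 factors was written as TGANTCA, where N is any base. The windows are chr1:134037004-134037253 (plus strand, *Fmod*), chr1:133921402-133921651 (minus strand, *Prelp*), chr13:49544193-49544442 (plus strand, *Aspn*), chr13:49582212-49582461 (plus strand, *Omd*) and chr13:49607765-49608014 (plus strand, *Ogn*).
Fmod: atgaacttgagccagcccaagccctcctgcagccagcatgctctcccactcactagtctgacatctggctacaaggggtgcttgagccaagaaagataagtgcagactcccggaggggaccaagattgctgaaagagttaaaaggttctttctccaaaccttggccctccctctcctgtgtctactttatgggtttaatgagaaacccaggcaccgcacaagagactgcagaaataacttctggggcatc
Prelp: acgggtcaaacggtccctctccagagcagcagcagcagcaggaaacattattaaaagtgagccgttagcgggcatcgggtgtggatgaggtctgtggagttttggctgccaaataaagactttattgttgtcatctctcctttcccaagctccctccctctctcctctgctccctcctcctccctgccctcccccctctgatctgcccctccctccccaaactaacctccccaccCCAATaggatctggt
Aspn: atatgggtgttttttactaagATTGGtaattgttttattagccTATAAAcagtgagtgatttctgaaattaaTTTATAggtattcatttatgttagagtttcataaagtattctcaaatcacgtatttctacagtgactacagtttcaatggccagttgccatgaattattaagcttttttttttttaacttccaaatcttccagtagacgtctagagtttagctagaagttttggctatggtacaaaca
Omd: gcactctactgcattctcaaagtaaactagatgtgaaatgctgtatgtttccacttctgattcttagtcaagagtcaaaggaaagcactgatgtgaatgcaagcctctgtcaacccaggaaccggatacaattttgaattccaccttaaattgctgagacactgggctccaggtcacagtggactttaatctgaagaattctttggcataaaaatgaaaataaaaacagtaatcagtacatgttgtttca
Ogn: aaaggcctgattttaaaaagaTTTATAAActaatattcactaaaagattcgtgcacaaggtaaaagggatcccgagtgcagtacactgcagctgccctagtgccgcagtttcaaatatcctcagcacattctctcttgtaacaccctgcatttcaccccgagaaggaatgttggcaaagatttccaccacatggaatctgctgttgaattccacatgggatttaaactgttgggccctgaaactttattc
The *Aspn* window held a TATA box 207 and another 178 bases before the start and a CCAAT box at 229, that of *Prelp* held a CCAAT box at 15, and that of *Ogn* held an overlapping pair of TATA boxes on opposite strands, at 229 and 227. The windows of *Fmod* and *Omd* held none of the 4 motifs. Over the 8 matched genes, 2 windows held a TATA box, 3 a CCAAT box, 1 a GC box and 0 an AP-1 motif, against 13.0, 34.5, 32.9 and 6.87% of all 27025 windows in the table. The share of G and C was 51.2% for *Fmod*, 55.6% for *Prelp*, 30.0% for *Aspn*, 38.4% for *Omd* and 42.0% for *Ogn*, with a median of 52% over all windows. A match describes letters only and was not tested as a binding site.

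Of the 10 genes, those of fibromodulin, lumican and asporin passed the test. The criteria of the study's methods, P below 0.05 by limma together with an FDR (Benjamini-Hochberg, over all genes) below 0.25, defined a called gene. Of all genes tested, 2.33% were called lower and 1.65% higher in aged mice, against 3 and 0 of the 10 proteoglycan genes. These shares include many dim genes: 26736 of the 45616 were well above background on all 4 arrays, against 9 of the 10. With only probes well above background kept, 3707 of 29504 genes were called lower, and 6 of the 9 proteoglycan genes measured. These 3 genes were also past the limits for differentially expressed genes (DEGs), a mean level of at least 100 and a fold-change of at least 1.5, which 1.15% of all genes met in this direction and 0.813% in the other, where 0 of the 10 lay. The median log2 fold change was -0.36 over the 10 genes and 0.01 over all genes. With any of the 4 arrays left out, 0 of the 10 genes were called by limma, and the smallest FDR over all genes was 0.408, while 3 or 4 of the 10 had an unadjusted P below 0.05. The lower direction itself was shared by 48.5% of all genes. A level below is the normalized intensity of a gene's probes, which can be compared between arrays but not between genes.

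*Fmod* encodes fibromodulin, which binds type I collagen and directs its crosslinking by lysyl oxidase. Its level was 4093 and 4259 in young adult mice, against 1995 and 2065 in aged mice. Both aged pools lay far below both young adult pools, beyond the difference between pools of an age. The log2 fold change was -1.04 (standard error 0.08, FDR = 0.178 by limma), with a 95% interval of -1.28 to -0.80.

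*Lum* encodes lumican, a regulator of fibril diameter known for its part in corneal transparency. Its level was 13819 and 14320 in young adult mice and 8559 and 8771 in aged mice, and the pools of an age were nearly equal. The log2 fold change was -0.70 (standard error 0.08, FDR = 0.188 by limma). Among the arrays left out in turn it stayed between -0.73 and -0.67, the narrowest range of the 3 called genes.

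*Aspn* encodes asporin, which binds collagen and TGF-β. Its level was 529 and 551 in young adult mice and 301 and 351 in aged mice, with no overlap between the ages and more spread between the aged pools. The log2 fold change was -0.73 (standard error 0.11, FDR = 0.219 by limma). It was -0.84 without aged pool 2 and -0.63 without aged pool 1.

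Decorin and biglycan, the closest relatives within the family, did not pass. *Dcn*, whose product coats collagen fibrils and binds TGF-β, was at 79509 and 66063 in young adult mice and 66826 and 60593 in aged mice. Its ages overlapped, since aged pool 1 exceeded young adult pool 2. The log2 fold change was -0.19 (95% interval -0.60 to 0.22, FDR = 0.628 by limma). Without young adult pool 1 the value was -0.05, and without young adult pool 2 it was -0.33.

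*Bgn*, whose product can signal through Toll-like receptors once released from matrix, was at 1616 and 1838 in young adult mice and 1315 and 1251 in aged mice. The ages did not overlap, and the log2 fold change was -0.43 (95% interval -0.74 to -0.11). Its P was 0.022 by limma but its FDR was 0.3, so it was not called here. It passed under 6 of 16 other settings, among them a background offset of 16 or 50.

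*Omd*, *Ogn* and *Prelp* were not called either. *Omd*, whose product osteomodulin is found in mineralized tissue, was at 3435 and 3329 in young adult mice and 2764 and 2778 in aged mice, a clear gap between the ages of small size (log2 fold change -0.29, FDR = 0.312 by limma). *Ogn*, encoding osteoglycin, was at 7132 and 6534 against 5832 and 5015, with a log2 fold change of -0.34 and an FDR of 0.404 by limma. In both genes the aged pools lay below the young adult pools. *Prelp*, whose product links basement membranes to connective tissue, has 2 probes that moved alike, with log2 fold changes of -0.20 and -0.20. Its brighter probe was at 13266 and 12144 in young adult mice and 10978 and 11158 in aged mice, and the gene's FDR by limma was 0.513. These intervals left room for a change of modest size, down to -0.49 for *Prelp* and -0.70 for *Ogn*.

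*Epyc* and *Kera* are known from growth plate cartilage and cornea. *Epyc* was at 296 and 293 in young adult mice and 219 and 271 in aged mice, so that the aged pools differed more than the young adult ones (log2 fold change -0.27, FDR = 0.52 by limma). *Kera* was the only one of the 10 genes close to background: it was well above it on 1 young adult array and on 0 aged arrays. Its measured level was 52.2 and 49.3 in young adult mice and 43.9 and 34.2 in aged mice, and no fold is given for a signal this dim. The 95% interval of the log2 change was -0.86 to 0.09, and the FDR was 0.446 by limma. The size depended on the background correction, from a log2 fold change of -0.18 with an offset of 50 to -1.12 with the scanner software's processed signal.

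**Figure D1:**
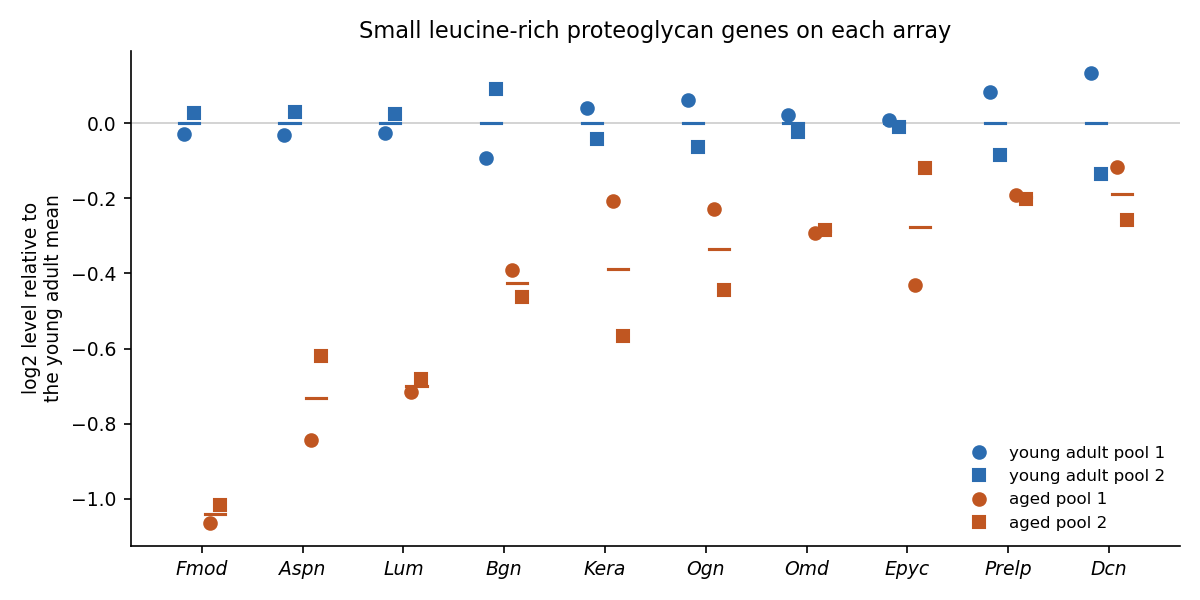
Level of each gene on each of the 4 arrays, as the log2 difference from the mean of the young adult arrays (vertical axis), with genes ordered by their change (horizontal axis). Blue symbols are young adult pools, orange symbols aged pools, circles pool 1 and squares pool 2, and short lines are means. The aged symbols of *Fmod*, *Aspn* and *Lum* lie well below the young adult ones, and those of *Dcn* overlap them.

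Both aged pools lay below both young adult pools for 9 of the 10 genes, with *Dcn* as the exception. The 9 include *Kera*, whose signal was close to background. Such a separation was shown by 21.8% of all genes in this direction and 24.2% in the other. An unadjusted P below 0.05 was reached by 5 of the 10, against 7.09% of all genes on the lower side and 6.05% on the higher side. Young adult pool 1 and aged pool 1 shared a slide, and within it all 10 genes were lower in the aged pool. The differences ran from -0.25 for *Kera* and *Dcn* to -1.04 for *Fmod* on the log2 scale. The *Kera* probe was not well above background on either array of this slide. Both arrays are also part of the main fit, and the share of all genes lower within the slide was not counted. For any gene by itself, 2 pools per age leave 0.333 as the smallest two-sided P of an exact permutation test, so the calls rest on the spread that limma shares across genes.

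Within the chromosome 10 cluster, *Lum* was called and its neighbours *Dcn*, *Kera* and *Epyc* were not. On chromosome 13, *Aspn* was called and *Omd*, *Ogn* and *Ecm2* (log2 fold change -0.50, FDR = 0.289 by limma) were not. On chromosome 1, *Fmod* was called, and *Prelp* and *Optc* (-0.29, FDR = 0.42) were not. Differences between neighbours on chromosomes 1 and 13 were not tested. The ratio of each of the other members to *Dcn* within an array was fitted, a comparison added after the data were seen, in which *Lum*, *Kera* and *Epyc* share the cluster of *Dcn*. By this fit the change relative to *Dcn* was -0.85 on the log2 scale for *Fmod* (standard error 0.25), -0.54 for *Aspn* and -0.51 for *Lum*, and none of the 3 was called (FDRs of 0.51, 0.687 and 0.688 by limma). A difference between the change of *Dcn* and that of these genes did not pass the test. The ratio carries the spread of *Dcn*, at 79509 and 66063 in the young adult pools. For *Fmod* the standard error was 0.25, against 0.08 in the main fit. The fit therefore does not show that these genes changed like *Dcn*.

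Most genes of the collagens that these proteins coat, or that lie beside them, also fell. Of 13 fibril-associated genes in a list (collagens I, II, III, V, VI, XI, XII and XIV, and lysyl oxidase), 10 were called lower and 0 higher, with a median log2 fold change of -1.10. Over all genes, 2.33% were called lower and 1.65% higher. This list was chosen with earlier results of these data known. The study itself reported *Col1a1*, *Col2a1*, *Col3a1* and *Col5a1* as lower from the same arrays, so the count is not independent of that report. Relative to *Dcn* within an array, *Col1a1* changed by -1.79 on the log2 scale (standard error 0.25, FDR = 0.0953 by limma), *Col3a1* by -1.78 (FDR = 0.0953) and *Col1a2* by -1.33 (FDR = 0.208). In that fit 0.0943% of all genes were called lower and 0.285% higher. Its values all share the *Dcn* probe, so the spreads of the genes are not separate, as limma takes them to be. The FDRs of that fit can therefore be too small, and its calls are a description. For *Col1a1* the log2 ratio on the aged arrays was -1.91 and -1.67 relative to the young adult mean, and on the young adult arrays it was -0.10 and 0.10. The changes of the 10 called genes ran from -1.98 for *Col1a1* to -0.58 for *Col5a2*, a range that overlaps that of the called proteoglycan genes. The genes not called were *Col12a1* (-0.57, FDR = 0.391), *Col14a1* (-0.50, FDR = 0.282) and *Lox* (-0.17, FDR = 0.599 by limma).

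**Figure D2:**
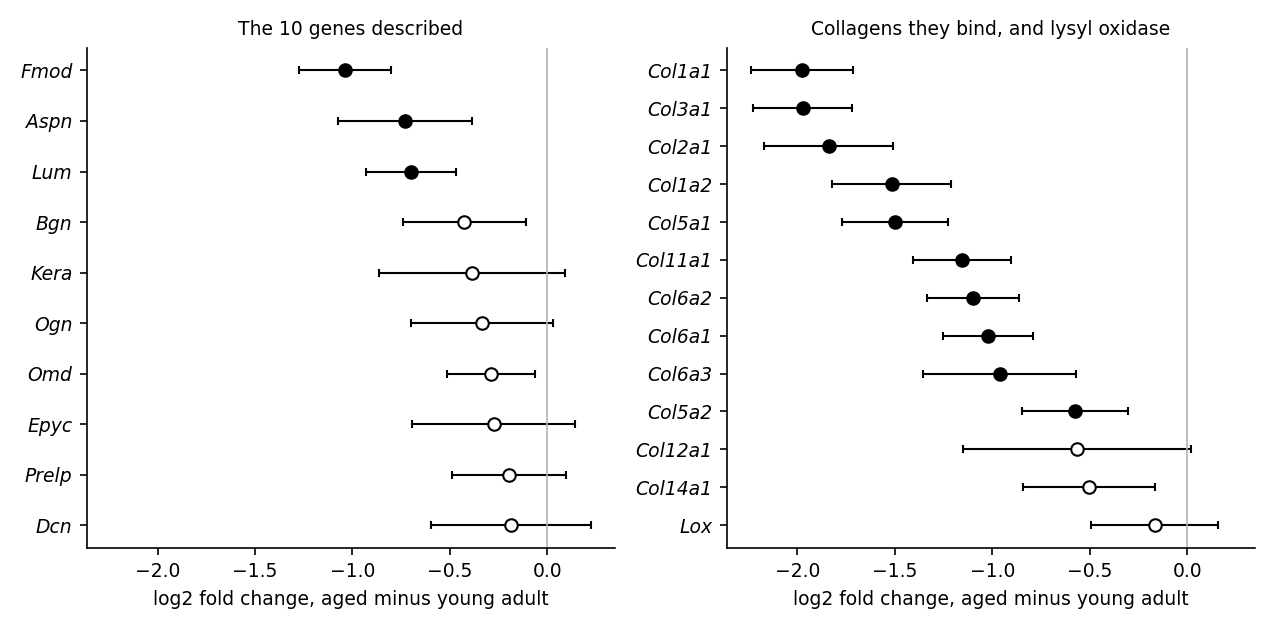
Log2 fold change between aged and young adult mice (horizontal axis, negative values lower in aged mice) for the 10 proteoglycan genes (left) and the fibril-associated genes (right). Points are limma estimates with 95% intervals, filled where the gene was called. *Fmod*, the largest change on the left at -1.04, is close to *Col6a1* and *Col6a2* on the right, and *Dcn* at -0.19 is close to *Lox*.

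Of the 8 further genes of the family in the list, *Podnl1*, encoding a podocan-like protein, was called lower, from 171 and 204 in young adult mice to 93.7 and 92.6 in aged mice (95% interval of the log2 fold change -1.37 to -0.64, FDR = 0.197 by limma). *Chad*, encoding the cartilage protein chondroadherin, was at 833 and 833 against 602 and 646 and narrowly missed (-0.42, FDR = 0.258). *Nyx* was called higher (FDR = 0.241), but its probe was not well above background on any array, so no fold is given. Over these 8 the median was -0.32 on the log2 scale.

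Among enzymes that build the sugar chains, 1 gene passed the test. Of 6 genes of the linker that joins a chain to its protein, limma called 0, with changes from -0.20 to 0.07 on the log2 scale and a median of -0.06. Of 16 genes of chondroitin and dermatan sulfate synthesis it also called 0, with a median of -0.05. The smallest P among these 16 was that of *Dse*, the dermatan sulfate epimerase gene, at 185 and 186 in young adult mice and 137 and 151 in aged mice (-0.36, FDR = 0.303). Of 7 keratan sulfate genes, *Chst5*, a sulfotransferase gene, was called higher, from 417 and 461 to 668 and 663 (log2 fold change 0.60, FDR = 0.216 by limma), and the median was 0.07.

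Proteases known to cleave members of the family fell in part, beside a share of 2.33% called lower over all genes. Of 8 genes, 3 were called lower: *Mmp13*, encoding a collagenase (log2 fold change -1.19), *Mmp2*, a gelatinase (-0.95), and *Mmp14*, a membrane-bound activator of the MMP2 protein (-0.78), with FDRs of 0.178, 0.178 and 0.208 by limma. *Bmp1*, whose product trims the biglycan and osteoglycin precursors, had a log2 fold change of -0.52 and an FDR of 0.257. Of 12 growth factor and receptor genes whose products interact with the family, only *Kdr*, the VEGF receptor gene, was called (-0.59, FDR = 0.209), and *Lrp1*, whose product takes up decorin, was at -0.40 (FDR = 0.264). *Tgfb1*, *Tgfb2* and *Tgfb3* were at -0.48, -0.40 and -0.28, with FDRs of 0.295, 0.322 and 0.365.

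Markers of several cell types of the mucosa were lower in aged mice beside the proteoglycan genes. Over all genes, 2.33% were called lower and 1.65% higher. Summed levels below add the intensities of a list's genes, so they are set mostly by the brightest probes, and the counts and medians are not. Of 9 osteoblast markers 7 were called lower, with a median log2 fold change of -0.94, and their summed level was 37913 to 40256 in young adult mice and 18610 to 19353 in aged mice, of which *Bglap2* alone gave 21117 to 23518 and 11049 to 11671. Of 7 fibroblast markers 2 were called lower, *Dpt* (-1.24, FDR = 0.221) and *Pi16* (-0.63, FDR = 0.21), whereas *Pdgfra* was at -0.29 (FDR = 0.433), and the summed level went from 4922 to 5271 in young adult mice to 3885 to 4135 in aged mice. Of 8 cartilage markers 1 was called lower, *Acan* (-1.30, FDR = 0.208), with sums of 4035 to 4094 and 3218 to 3345. The *Acan* probe was well above background on only 1 of the aged arrays, so the size of its change is uncertain. *Matn1* and *Matn3* were well above background on 0 of the 4 arrays. *Col9a1* went the other way, from 262 and 295 in young adult mice to 459 and 303 in aged mice (0.42, FDR = 0.569 by limma). Schwann and ensheathing cell markers had 5 of 7 called lower (sums of 37550 to 38701 and 26379 to 27782), endothelial markers 2 of 5 (10133 to 10304 and 7081 to 7341), and smooth muscle and pericyte markers 3 of 8 (54852 to 56779 and 53859 to 55056, of which *Tagln* gave 27989 to 29696 and 28336 to 29127). None of the markers in these lists was called higher. Like *Col9a1*, *Rgs5* (0.17) and *Des* (0.14) of the smooth muscle and pericyte list were higher on both aged arrays than on both young adult arrays. Of the ORN markers 1 of 8, *Stoml3*, was called higher, with sums of 454170 to 465200 and 509190 to 516640. All 8 were higher on both aged arrays than on both young adult arrays (median log2 fold change 0.20), a separation that 24.2% of all genes showed. Of the sustentacular markers 0 of 6 were called in either direction, with sums of 1032100 to 1033300 and 1014800 to 1038500. The part of cell composition in the proteoglycan values was not tested.

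**Figure D3:**
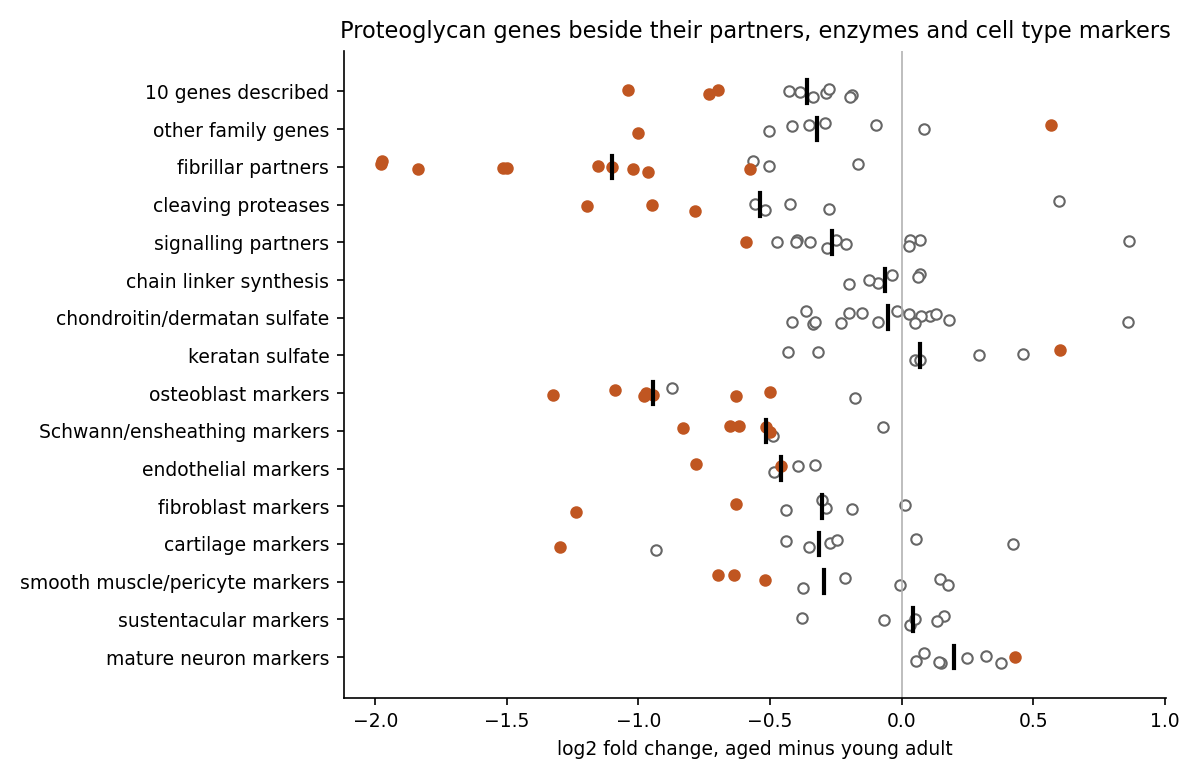
Log2 fold change of single genes between aged and young adult mice (horizontal axis) in each list of genes (vertical axis). Each point is a gene, filled orange where it was called, and the black bar is the median of the list. The proteoglycan genes (median -0.36) lie between the fibrillar partners (-1.10) and the chain-building enzymes, whose medians are near 0. That position is shared by the other family genes (-0.32), the cleaving proteases (-0.54) and the signalling partners (-0.27). Among markers it is shared by the Schwann and ensheathing (-0.52), endothelial (-0.46), cartilage (-0.31), fibroblast (-0.30) and smooth muscle and pericyte (-0.295) lists. Osteoblast markers (-0.94) lie lower and mature neuron markers (0.20) higher.

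Genes with the most similar values over the 4 arrays were sought for the 3 called genes, among 14142 named genes with a level of at least 100 and every probe well above background on all arrays. The measure was the root mean square difference of the centred log2 values. For *Fmod* these were *Col4a2* (0.0117), *Cd248* (0.0175) and *Tgm5* (0.0198). For *Lum* they were *Gpx3* (0.00994), *Rtp4* (0.0127) and *Olfr575* (0.0167), and for *Aspn* they were *Gng3* (0.008), *Arap3* (0.0121) and *Oas1f* (0.0187). With 4 values per gene, this order is a description.

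Across the other settings the 3 calls were shared by all 11 fits that kept the 4 arrays and no replicate block. Over all 16 settings, *Fmod* stayed between -1.07 and -0.99 on the log2 scale, *Lum* between -0.73 and -0.67 and *Aspn* between -0.84 and -0.63. *Dcn* and *Epyc* were called in 0 of 16 settings.

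**Figure D4:**
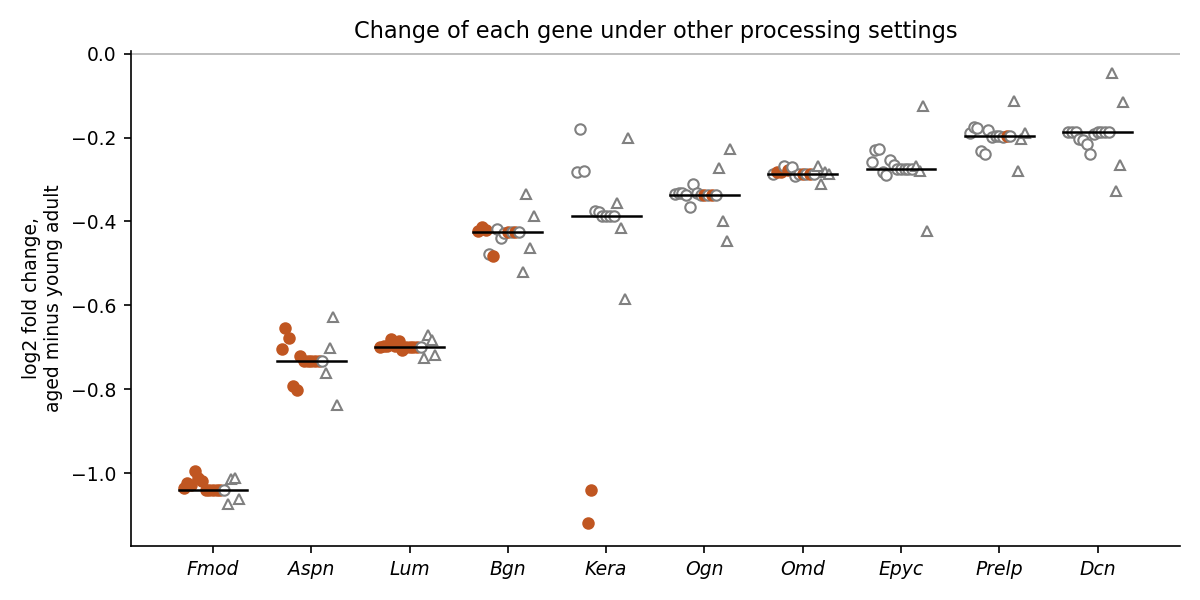
Log2 fold change of each gene (vertical axis) under 16 other processing settings, with the reported value as a black line and genes ordered as by their change. Circles are fits on 4 arrays, triangles fits with an array left out, and orange marks a call. No estimate was above 0, and the widest range was that of *Kera*, from -1.12 to -0.18.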

How the data were processed

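Nasal mucosa RNA of 2 young adult and 2 aged pools was hybridized to Agilent SurePrint G3 one-color mouse arrays. The authors deposited scanner files with spot intensities extracted by Feature Extraction 11.0.1.1, and per the labels' processing notes analyzed them with R 3.2.1. The deposited value table equals the scanner software's processed signal intensity exactly, with no tolerance, for all 62976 spots and served as an alternative. Here, median spot signals were background-corrected (normexp, offset 0), control and outlier spots removed, log2 values averaged per probe, quantile-normalized and averaged per gene, and ages compared with limma 3.58.1 in R 4.3.3 over 45616 genes. The number of arrays limits the precision. Of 56605 probes, 32994 were named through RefSeq accessions. Scripts were tested on simulated data.

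The members and lists were chosen with earlier results of these data known. Named genes are the 10 members, genes of the lists, and the 3 genes nearest in profile to each called member. Alternatives were background correction, normalization, probe filters, the spread model, stricter FDRs, a replicate block and leaving out each array. The ratio to *Dcn* was added after the data were seen.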

Additional observations from a re-analysis of the deposited data

How the results depend on the processing

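All 10 proteoglycan genes were lower in aged mice under each of the 16 alternatives, except that *Kera* could not be tested when only probes well above background were kept. The 3 genes called lower became 5 with a normexp offset of 50 or with no background correction. They became 6 with the processed signal quantile-normalized or with only probes well above background, and 7 with an intensity trend. Calls over all genes rose in the same settings. From 1063 of 45616 called lower, they became 2478 with the offset of 50 and 2241 with no background correction. They were 2346 with the quantile-normalized processed signal, 3707 of 29504 with only probes well above background, and 3517 with the trend. The 3 proteoglycan genes called became 0 at an FDR below 0.10 or 0.05, as did the 3 past the DEG limits. Over the other lists, 35 genes were called lower, and 60 with an offset of 50, 54 with no background correction, 58 with the quantile-normalized processed signal, 75 with only probes well above background and 67 with the trend. There were 3 called higher, and 5 with an offset of 50, 1 with scaling to the 75th percentile, 6 with only probes well above background and 9 with the trend. Over all genes 754 were called higher, and 2107, 584, 3446 and 3607 in these settings, in that order. At an FDR below 0.10 or 0.05 both list counts were 0. With the replicate number as a block, 0 members, 0 members past the DEG limits and 0 list genes were called (smallest FDR 0.433, with 4 members at an unadjusted P below 0.05). The labels do not say that equal numbers mark a shared origin, and deviations of same-numbered pools correlated at -0.0779. Without any array in turn, every one of these counts ranged from 0 to 0. In such fits the lone pool is assumed to vary like the pair. Slide as a random block could not be fitted, since no correlation could be estimated. Signal close to background limits *Kera* most.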
